A study of Mus musculus with 16 samples.

Results

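Integrins, laminins and the proteins of focal adhesions were followed as a group of 53 genes in medullary thymic epithelial cells (mTEC). The group held every Ensembl gene of the count table whose symbol names an integrin alpha or beta chain or a laminin alpha, beta or gamma chain, without pseudogenes. Ptk2, Ptk2b, Pxn, Vcl, Tln1, Tln2, Ilk, Parva, Bcar1, Src and Fn1 were added by name. These 53 genes, of 53464 Ensembl genes in all, comprise 18 integrin alpha chains, 9 integrin beta chains, 11 laminin chains, 10 genes of the adhesion complex, Fn1 and 4 genes that carry an integrin's name but encode no chain (Itgb1bp1, Itgb1bp2, Itgb3bp and Itgbl1).

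Integrins are receptors made of 1 alpha and 1 beta chain that bind matrix proteins such as laminin and fibronectin outside the cell and couple them to actin or keratin filaments inside it. Laminins are trimers of an alpha, a beta and a gamma chain and form the core of basement membranes. In stratified epithelia, laminin-332, which holds the chains of Lama3 and Lamb3, is held by the integrin of Itga6 and Itgb4 at hemidesmosomes, while integrins with the Itgb1 chain recruit talin, vinculin, paxillin and focal adhesion kinase to focal adhesions.

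The 16 RNA-seq libraries came from 8 mice, each giving mature (MHC class II high) and immature (MHC class II low) mTEC, sorted from single mice as CD45-, EpCAM+, Ly51- and UEA+ cells. In the Rbfox1 line, 2 tKO mice (Rbfox1 lox/lox with Foxn1 wildtype/cre) were set against 2 control mice (Rbfox1 lox/lox with Foxn1 wildtype/wildtype), and the Rbfox2 line had the same plan with Rbfox2 lox/lox. Mice were 4 to 6 weeks old by the labels, which give the strain as C57BL/6, while the methods describe mixed 129S2/Sv and C57BL/6J mice with littermate controls of the same sex. Cre was expressed from the Foxn1 locus, active in thymic epithelium, so that every tKO mouse carried Cre and no control mouse did, and the effects of Cre and of losing the RBFOX gene cannot be told apart.

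Library totals ranged from 3737884 to 4636367 counts in mature and from 1506134 to 2430287 in immature mTEC. Rbfox2 was at 9.56 and 16.2 CPM (counts scaled to a common library size by TMM) in mature mTEC of Rbfox2 tKO mice against 58.1 and 57.1 CPM in their controls, and at 37.8 and 23.6 against 106 and 94.5 CPM in immature mTEC. Rbfox1 was at 34.1 and 29.8 CPM in mature mTEC of Rbfox1 tKO mice against 52.6 and 48.6 CPM in controls, but at 152 and 154 against 164 and 160 CPM in immature mTEC, so the deposited counts give little check of that label there. All 8 mTEC markers (Epcam, Krt5, Krt14, Aire, Fezf2, Cd80, H2-Aa and Foxn1) had counts in both populations, with a summed level of 7949 to 8851 CPM in mature and 8392 to 11066 CPM in immature mTEC. The sum held opposite moves. In control mice Krt5 was at 445 to 724 CPM in mature and 3504 to 4813 CPM in immature mTEC, and Krt14 at 217 to 349 and 1362 to 2316 CPM. H2-Aa was at 4260 to 5034 CPM in mature and 2326 to 2717 CPM in immature mTEC. By edgeR, 5 of the 8 were higher and 3 lower in mature mTEC of control mice (adjusted p under 0.05). Markers of 4 fibroblast genes were present as well, and their sum differed between the lines in immature mTEC, at 281 to 560 CPM in the Rbfox1 line and 1424 to 2130 CPM in the Rbfox2 line.

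As a group, the 53 genes were expressed at a higher level in immature than in mature mTEC. Their summed level in control mice was 8204 CPM ± 1141 (SD, n = 4) in immature and 4251 CPM ± 155 (SD, n = 4) in mature mTEC. The laminin chains differed most, with 2921 CPM in immature and 719 CPM in mature mTEC of control mice. Every member had a count in some library, 43 had a count in all 16 libraries and 33 had at least 10 counts in all 16. At an equal depth of 1506134 counts, 51.6 ± 0.572 members (SD, n = 4) would have been detected in mature and 47.3 ± 2.2 in immature mTEC of control mice, so that mature mTEC held counts of more members although the group's summed level was lower there.

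Per kilobase of exon, the scale on which genes can be compared, the laminin receptors were among the highest members in both populations. Itgb1, the beta chain shared by most matrix integrins, ranked first, with 144 CPM per kb ± 17.4 in immature and 76.5 CPM per kb ± 6.49 in mature mTEC of control mice (SD, n = 4). The next receptor chains in immature mTEC were Itga6 and Itgb4, with 112 and 111 CPM per kb. Itga6 overlapped both Itgb1 and Itgb4 in its range over the 4 mice, while Itgb4 stayed under Itgb1. Ilk, the integrin-linked pseudokinase, stood lower at 70.2 CPM per kb, without overlap with Itgb4. Then came Lamb3 (61.4), Itga3 (54.8), Lama3 (54.5), Lamb1 (53.4) and Vcl (52.1 CPM per kb), each with a range that overlapped that of the next.

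In mature mTEC the order was different. After Itgb1 came the tyrosine kinase Src at 53.4 and Itga6 at 52.5 CPM per kb, with overlapping ranges and both under Itgb1. Itga3 (46.1), Ilk (44.2) and Itgb4 (41.6 CPM per kb) followed without separation between neighbours, and below them came Ptk2b (29.0), Fn1 (27.8) and Itgb8 (19.5 CPM per kb). Lamb3, Lama3 and Lamb1, among the first 10 members in immature mTEC, held ranks 16, 17 and 24 in mature mTEC. At the other end, Itgam (the leukocyte chain CD11b) had 3 counts in all 4 mature control libraries and 0 in the immature ones, and 68.7% of its exon bases lie within another gene model on the same strand. Ilk also shares 76.7% of its exon bases with Taf10 and Vcl 25.5% with Ap3m1. Taf10 and Ap3m1 lie on the opposite strand, and strand use in the counting is not stated, so the levels of Ilk and Vcl are less certain. The level of Itgam is less certain whatever the strand use.

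**Figure D1:**
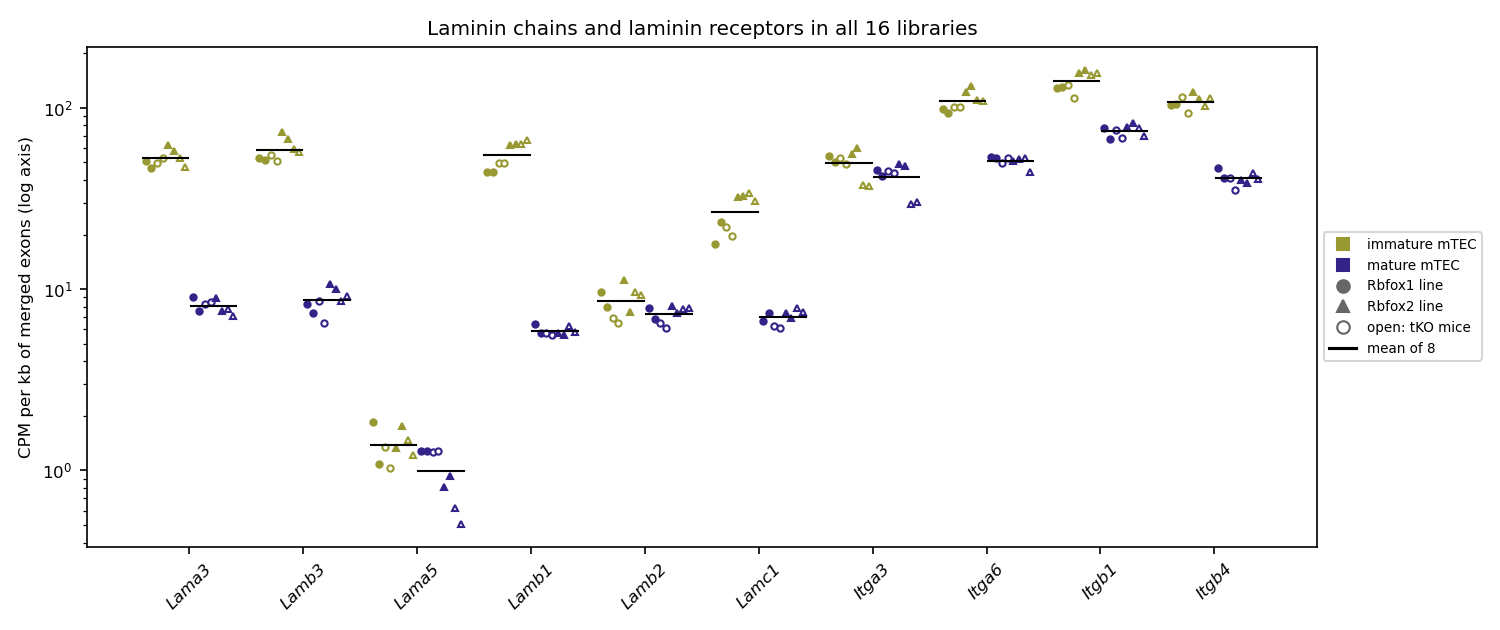
Laminin chains and laminin receptors in CPM per kb of merged exons on a log axis, with 1 point per library and a bar at the mean of 8 libraries; colours mark the population, shapes the line and open points tKO mice. Lamb1, Lamb3 and Lama3 lay well lower in mature mTEC, while Lamb2 and Lama5 overlapped between populations and Itga3 was lowest in Rbfox2 tKO mice.

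In control mice, both populations were compared to ask which adhesion genes change with the state of mTEC maturation. Lama3 and Lamb3 of laminin-332, its receptor chains, vinculin, talin and p130Cas (Bcar1) fell in mature mTEC, whereas Itgal, Itgb2, Itgb3 and other integrin chains known from blood cells that could be tested, Itgb8 and the kinase Ptk2b rose. Called by edgeR's quasi-likelihood test (p adjusted by Benjamini-Hochberg under 0.05, with a fold over 2), 16 of the 46 members tested were lower and 15 were higher in mature mTEC. Over all 15357 rows tested, 10.8% were called lower and 23.7% higher. The share of members called lower was above that background, and the share called higher was above it to a smaller degree. Members with few immature counts, such as Itga7, Itga11, Lama1 and Lamc3, passed the filter on low counts through the mature libraries. For them being tested already meant being higher, so the share called higher carries that limit. By adjusted p alone, 22 members were lower and 19 higher, against 30.5% and 35.7% of all rows. The median log2 fold change of the members was -0.25, and that of all rows tested was 0.02.

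The same contrast in tKO mice, which shares no library with that of the control mice, called 16 members lower and 15 higher of 46 tested, where 11.5% and 23.2% of all 15189 rows were called. By adjusted p alone the counts were 22 and 18, against 29.7% and 35.7% of all rows. The 7 members not tested in either had too few counts: Itga10, Itga2b, Itgam, Itgax, Itgb1bp2, Itgb2l and Itgb7.

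**Figure D2:**
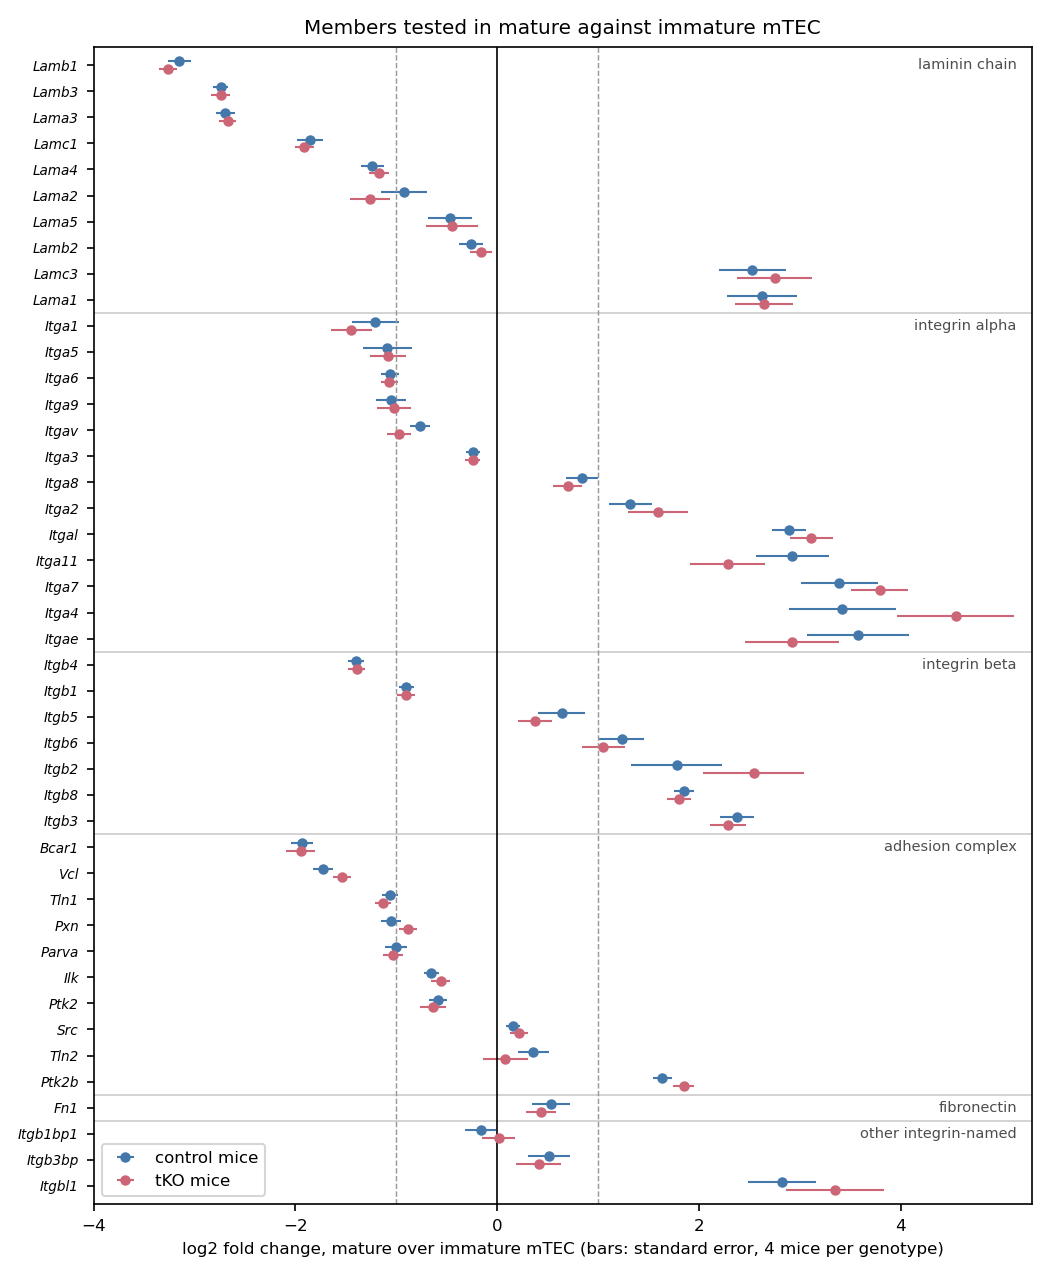
Log2 fold change of mature over immature mTEC with its standard error, for members tested that had a count in immature mTEC of control mice, grouped by kind, in control mice (blue) and tKO mice (red); dashed lines mark a fold of 2. Most laminins and adhesion complex genes lay left of 0, and the integrin chains lay on both sides.

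Laminins carried the greatest fall. Of 11 laminin chains, all tested, 6 were called lower and 2 higher in control mice, beside 10.8% and 23.7% of all rows. The median log2 fold change of the laminins was -1.24. Lama1 and Lamc3, the 2 called higher, had 21 and 15 counts in immature control libraries and passed the filter on low counts through the mature libraries. Lamb1, the beta chain of laminin-511 (12:31265234-31329644 in GRCm38), was measured at 438, 439, 617 and 626 CPM in immature and at 64.0, 56.8, 56.9 and 55.3 CPM in mature mTEC (control mice 2 and 3 of the Rbfox1 line, then 1 and 2 of the Rbfox2 line, an order kept below). Its log2 fold change was -3.15 ± 0.113 (SE, adjusted p = 3.03e-11).

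Lamb3, the beta chain of laminin-332 (1:193207699-193343878), was at 352, 341, 487 and 443 CPM in immature and at 54.9, 49.0, 70.8 and 66.0 CPM in mature mTEC. Its alpha chain Lama3 was at 547, 499, 674 and 622 CPM against 96.8, 81.8, 95.9 and 81.8 CPM. For both genes every immature library was above every mature one, and the log2 fold changes were close, at -2.74 ± 0.0759 and -2.69 ± 0.0946 (adjusted p = 3.98e-12 and 2.38e-11).

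Both genes kept a similar ratio to each other. Lamb3 stood at 1.12 ± 0.057 times Lama3 per kb in immature and 1.10 ± 0.185 times in mature mTEC of control mice (SD, n = 4).

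The chains of laminin-511 and laminin-521 moved unevenly. Lamc1, the gamma chain of both, fell by 1.86 ± 0.128 on the log2 scale (adjusted p = 1.49e-08), from 147 to 270 CPM in immature to 55.5 to 61.3 CPM in mature mTEC of control mice. Lama5, their alpha chain, had 12.3 to 21.1 CPM in immature and 9.17 to 14.5 CPM in mature mTEC, which overlapped (log2 fold change -0.47 ± 0.215, adjusted p = 0.0692). Lamb2, the beta chain of laminin-521, had 45.7 to 68.1 and 41.4 to 48.9 CPM, which overlapped as well (-0.26 ± 0.123, adjusted p = 0.0759). The ratio of Lamb2 to Lamb1 per kb was 0.175 ± 0.0414 in immature and 1.29 ± 0.0963 in mature mTEC (SD, n = 4), so that Lamb1 was the higher of the beta chains in each immature and Lamb2 in each mature control library.

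Lama4, an alpha chain of vascular and mesenchymal basement membranes, also fell, by 1.24 ± 0.113 on the log2 scale (adjusted p = 2.64e-07). Of 4 endothelial markers, all with counts in both populations, 3 were called lower as well, and their sum was 26.7 to 120 CPM in immature and 31.3 to 38.1 CPM in mature mTEC of control mice. Of 3 smooth muscle and pericyte markers, Acta2 and Rgs5 were called lower and Pdgfrb higher, with a sum of 1921 to 2944 against 742 to 1003 CPM. Their part in the laminin levels was not tested. Lama2, the alpha chain of muscle, fell by 0.93 ± 0.229 (adjusted p = 0.00251), under the fold threshold. In the opposite direction, Lama1, an early embryonic alpha chain, was at 1.29, 5.74, 1.63 and 0.602 CPM in immature and 16.8, 17.7, 12.9 and 12.6 CPM in mature mTEC (log2 fold change 2.62 ± 0.345, adjusted p = 1.06e-05). Lamc3 rose as well, by 2.53 ± 0.334 (adjusted p = 1.1e-05), from 1.2 to 2.72 CPM in immature to 7.66 to 13.8 CPM in mature mTEC. Both remained low members in mature mTEC, at 1.55 and 1.72 CPM per kb.

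Among the receptors of laminin, Itgb4 and Itga6, the hemidesmosome integrin, fell together. Itgb4 (11:115974709-116008412) was at 729, 739, 855 and 782 CPM in immature and at 329, 287, 282 and 270 CPM in mature mTEC (log2 fold change -1.40 ± 0.0808, adjusted p = 2.42e-09). Itga6 (2:71745616-71858416) was at 890, 845, 1107 and 1187 against 482, 478, 461 and 472 CPM (-1.06 ± 0.0868, adjusted p = 8.44e-08). Itgb1 fell by 0.90 ± 0.0703 (adjusted p = 5.44e-08), from 526 to 663 CPM to 276 to 339 CPM, which is under the fold threshold. Itga3, which pairs with Itgb1, changed least of the 4, at 288 to 341 CPM in immature and 240 to 279 CPM in mature mTEC (-0.24 ± 0.0678, adjusted p = 0.00616). Groups were separate for each of the 4 genes, and the ratio of Itga6 to Itga3 per kb was 2.03 ± 0.213 in immature and 1.14 ± 0.0942 in mature mTEC (SD, n = 4).

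Itga1, Itga5 and Itga9, alpha chains for collagen, fibronectin and tenascin among other ligands, were called lower as well, with log2 fold changes of -1.21 ± 0.229, -1.09 ± 0.243 and -1.05 ± 0.151. Itga5 did not pass in the Rbfox1 line alone (-0.60, adjusted p = 0.0662) and was at -1.63 in the Rbfox2 line alone (adjusted p = 0.000153), where 1 immature control library was at 36.5 CPM and the other at 22.9 CPM. Itgav, the alpha chain of the RGD-binding integrins, fell by 0.76 ± 0.1 (adjusted p = 1.05e-05). Of the beta chains that pair with Itgav, Itgb8 was at 69.7, 69.3, 45.7 and 56.0 CPM in immature and at 236, 209, 217 and 198 CPM in mature mTEC (1.85 ± 0.099, adjusted p = 1.14e-09). Itgb6 rose by 1.24 ± 0.222 (adjusted p = 0.000193), with 5.33 to 9.03 CPM in immature and 14.3 to 19.5 CPM in mature mTEC. Itgb5 had a log2 fold change of 0.64 ± 0.233 (adjusted p = 0.0258), with 1.24 in the Rbfox1 line alone (adjusted p = 0.000923) and 0.08 in the Rbfox2 line alone (adjusted p = 0.778). Integrins of Itgav with Itgb6 or Itgb8 are known for activating latent TGF-beta.

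Of the 14 alpha chains tested, 8 passed as higher and 6 as lower in mature mTEC, beside 35.7% and 30.5% of all rows. Itga7, Itga11, Itga4, Itgad and Itgae, all among the higher, had at most 18 counts over the 4 immature control libraries. They passed the filter on low counts through the mature libraries, so being tested already meant being higher. Itga7, a laminin receptor of muscle, was at 1.29, 4.10, 0 and 3.01 CPM in immature and 21.1, 30.4, 15.7 and 22.2 CPM in mature mTEC (3.39 ± 0.384, adjusted p = 2.44e-06). Itga11, a collagen receptor of fibroblasts, was at 1.29, 0.82, 0.544 and 1.81 against 6.81, 8.20, 8.70 and 10.9 CPM (2.92 ± 0.359, adjusted p = 5.44e-06). Itga2 and Itga8 had log2 fold changes of 1.32 ± 0.213 and 0.84 ± 0.159 (adjusted p = 7.35e-05 and 0.000291). Itgbl1, which encodes an integrin-like secreted protein and no receptor chain, rose by 2.82 ± 0.335 (adjusted p = 3.86e-06). It had at most 3 counts in any immature control library and carries the same limit.

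The integrin chains of leukocytes and platelets that could be tested were called higher in mature mTEC. So were the blood cell markers that could be tested, among them 3 of 6 thymocyte and T cell genes and 2 of 3 B cell genes. Markers with few immature counts, such as Adgre1 (0, 2.05, 0 and 0 CPM in immature control libraries), were tested only through the mature libraries. For them being called higher was largely set by the filter on low counts. Itgae, Itga4, Itgad and Itgb2 had 4, 6, 0 and 15 counts in immature control libraries and 106, 141, 146 and 109 in mature ones. These genes passed the filter on low counts through the mature libraries, so being tested already meant being higher there. Itgal and Itgb3 had 61 and 65 counts in immature control libraries. Itgal, the alpha chain of LFA-1, was at 6.03, 9.43, 7.08 and 6.62 CPM in immature and 57.7, 51.8, 47.0 and 61.3 CPM in mature mTEC (2.89 ± 0.172, adjusted p = 3.19e-09). Its partner Itgb2 was far lower, at 0.861, 3.69, 0.544 and 1.81 against 5.11, 7.34, 4.23 and 8.15 CPM (1.78 ± 0.451, adjusted p = 0.00303). Itgb3, the beta chain of platelets and osteoclasts, was at 6.89, 9.02, 9.80 and 5.42 against 43.8, 41.2, 39.0 and 37.8 CPM (2.38 ± 0.166, adjusted p = 1.65e-08). Its platelet partner Itga2b, too low to be tested, had 1.09 to 3.01 CPM in immature and 2.12 to 5.11 CPM in mature mTEC, which overlapped.

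Itgae (CD103) and Itga4 rose from at most 4 counts in any immature control library. Itgae was at 0.861, 0.82, 0 and 0 CPM in immature and 5.96, 7.12, 4.47 and 6.42 CPM in mature mTEC (3.58 ± 0.508, adjusted p = 2.22e-05). Itga4 was at 0.43, 1.64, 0 and 0.602 against 6.81, 9.06, 5.17 and 11.1 CPM (3.42 ± 0.53, adjusted p = 5.13e-05). Itgad, a beta 2 integrin alpha chain of macrophages, had 0 counts in the 4 immature control libraries and 146 in the mature ones. Against 3 counts taken as the limit over the immature group, it was at least 22.8-fold higher in mature mTEC of control mice. The adjusted p of 2.27e-06 belongs to the fold fitted by edgeR. In tKO mice Itgad had 2, 3, 1 and 0 counts in the immature libraries. Its log2 fold changes there were 3.12 in the Rbfox1 line alone and 4.15 in the Rbfox2 line alone. Itgax had 2 counts in immature and 49 in mature mTEC of control mice, and Itgb7 was at 1.2 to 2.72 against 1.70 to 4.70 CPM.

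All cells were sorted as CD45-. The 6 thymocyte and T cell genes (Cd3e, Cd4, Cd8a, Ptcra, Ptprc and Rag1) nevertheless summed to 48.2 to 58.3 CPM in mature and 3.44 to 23.4 CPM in immature mTEC of control mice, and all 6 had counts in both. The 4 myeloid genes (Adgre1, Cd68, Csf1r and Lyz2) summed to 262 to 353 against 16.9 to 27.1 CPM, also with counts of all 4 in both. For the 3 B cell genes the sums were 12.6 to 21 against 0 to 2.58 CPM and for the 3 platelet genes (Gp9, Pf4 and Ppbp) they were 16.2 to 24.7 against 0 to 4.10 CPM. The paper describes promiscuous expression of tissue-restricted genes in mTEC. Whether the leukocyte and platelet integrin transcripts came from blood cells or from the mTEC themselves was not tested. In bulk libraries such as these, fewer cells of a type and less RNA per cell cannot be told apart.

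**Figure D3:**
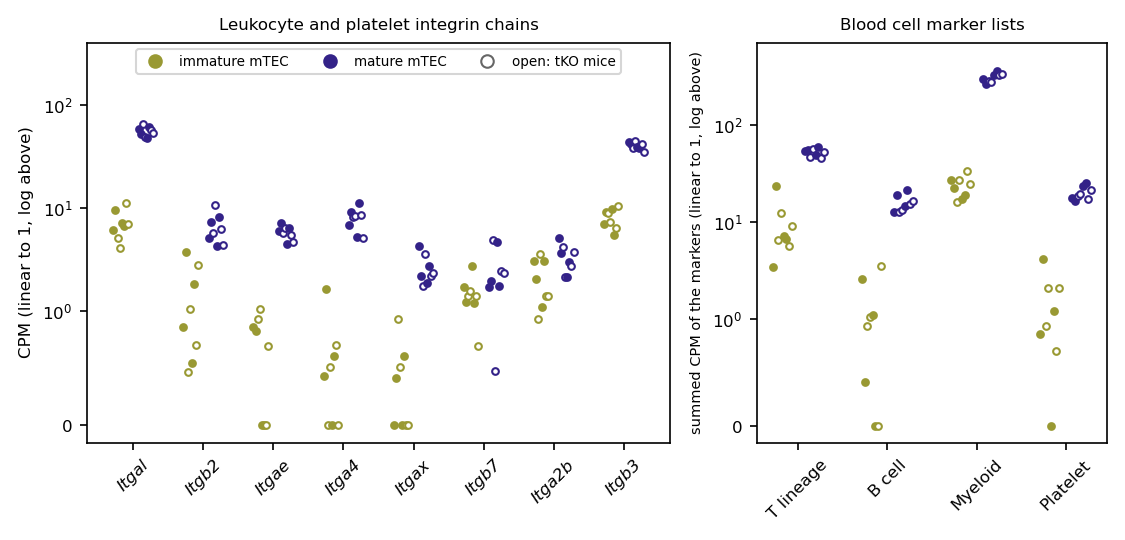
Level of 8 leukocyte and platelet integrin chains (left, CPM) and summed level of the marker lists of blood cells (right, CPM) in each library, on axes that are linear to 1 and logarithmic above, with open points for tKO mice. Itgal, Itgae and Itgb3 were higher in all 8 mature than in all 8 immature libraries, as were the 4 marker sums, while Itga2b and Itgb7 overlapped.

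Of the 10 adhesion complex genes, all tested, 5 were called lower and 1 higher in mature mTEC of control mice, beside 10.8% and 23.7% of all rows. Their median log2 fold change was -0.83. Bcar1, the scaffold p130Cas, was at 67.6, 72.2, 70.8 and 69.2 CPM in immature and 19.1, 16.2, 18.3 and 19.0 CPM in mature mTEC (-1.93 ± 0.107, adjusted p = 1.54e-09). Vcl (vinculin), which ties talin to actin, was at 322, 391, 486 and 507 against 131, 115, 131 and 128 CPM (-1.72 ± 0.0986, adjusted p = 2.17e-09). Tln1 (talin), the integrin activator and the scaffold Pxn (paxillin) had log2 fold changes of -1.07 ± 0.0786 and -1.05 ± 0.0965, and Parva (parvin) was called lower at 140 to 246 CPM in immature and 75.5 to 102 CPM in mature mTEC. Ilk fell by 0.65 ± 0.0732 and Ptk2, focal adhesion kinase, by 0.58 ± 0.0905 (adjusted p = 2.29e-06 and 5.17e-05).

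The paralogs of 2 of these genes behaved differently. Ptk2b, the kinase Pyk2, was at 71.0, 80.8, 62.6 and 63.2 CPM in immature and 237, 197, 215 and 210 CPM in mature mTEC (1.64 ± 0.0918, adjusted p = 1.75e-09). Ptk2 was thus the lower and Ptk2b the higher in mature mTEC, with both groups of 4 mice separate for each gene. Tln2 was at 13.2 to 19.1 CPM in immature and 19.0 to 24.4 CPM in mature mTEC (0.36 ± 0.152, adjusted p = 0.0502), and Src at 204 to 223 and 222 to 247 CPM (0.16 ± 0.0688, adjusted p = 0.0533).

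Fn1 (fibronectin, 1:71585520-71653200) differed by line. In immature mTEC it was at 186 and 159 CPM in the control mice of the Rbfox1 line and at 315 and 261 CPM in those of the Rbfox2 line, and in mature mTEC at 358 and 402 against 264 and 277 CPM. Over both lines it rose by 0.54 ± 0.189 on the log2 scale (adjusted p = 0.0218). In the Rbfox1 line alone the log2 fold change was 1.15 (adjusted p = 3.37e-07) and in the Rbfox2 line alone -0.07 (adjusted p = 0.522), and the difference between the lines was not tested. The tKO mice gave 0.84 and -0.001 in the same split (adjusted p = 2.76e-06 and 0.997).

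The fibroblast markers (Col1a1, Col3a1, Dcn and Pdgfra) moved with the line too. In immature mTEC of control mice all 4 had counts and summed to 281 and 479 CPM in the Rbfox1 line and 1645 and 1424 CPM in the Rbfox2 line. In mature mTEC they summed to 313 and 375 CPM in the Rbfox1 line and to 390 and 380 CPM in the Rbfox2 line. Over both lines 3 of the 4 were called lower in mature mTEC of control mice. The 4 genes did not move alike in the Rbfox1 line. There Col1a1 was at 35.7 and 89.4 CPM in immature and 153 and 188 CPM in mature mTEC, and Dcn at 143 and 178 against 82.8 and 82.9 CPM. The folds of Lama2 and Itga1 differed most between the lines among the members that fell: -0.37 and -0.49 in the Rbfox1 line alone, -1.48 and -1.89 in the Rbfox2 line alone. Lama2 did not pass the test in the Rbfox1 line alone (adjusted p = 0.229). The folds of Lamb3, Lama3, Lamb1 and Itgb4 were present in both, with Lamb3 at -2.73 and -2.75, Lama3 at -2.54 and -2.85, Lamb1 at -2.85 and -3.45, and Itgb4 at -1.24 and -1.55. Lama3, Lamb1 and Itgb4 had the larger fold in the Rbfox2 line, and Lamb3 had nearly the same fold in both. Among other members, the rising Itgb8 also had the larger fold in the Rbfox2 line (1.69 and 2.055), whereas Bcar1 had the smaller there (-1.969 and -1.885). Markers of mTEC differed by line too. In immature mTEC of control mice Aire was at 215 and 299 CPM in the Rbfox1 line against 41.4 and 36.1 CPM in the Rbfox2 line. Cd80 was at 32.3 and 34.9 against 13.1 and 4.21 CPM, whereas H2-Aa was at 2326 and 2496 against 2717 and 2643 CPM. In mature mTEC Aire was at 1237 and 1566 against 640 and 689 CPM. The parts of fibroblasts and of the mTEC state in these folds were not tested.

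Other genes of the pathway, from a list of 73 that the group did not hold, gave 25 lower and 8 higher of 67 tested in control mice, with a median log2 fold change of -0.55, beside the 10.8% and 23.7% of all rows. Among 40 linkers and signalling genes, 38 tested, 14 were called lower and 3 higher. The actin-binding filamin Flna, zyxin (Zyx) and the paxillin homologue Tgfb1i1 fell by 2.87 ± 0.0819, 2.33 ± 0.0804 and 3.90 ± 0.136 on the log2 scale, while the muscle filamin Flnc rose by 2.86 ± 0.287. Acta2, the smooth muscle actin among the pericyte markers, fell in the same comparison, by 3.61 ± 0.112, and its part in these results was not tested. Of 12 basement membrane genes, 7 were called lower and 2 higher of 11 tested, with Col4a1 and Col4a2 at -2.05 ± 0.0956 and -2.11 ± 0.0886 and Agrn (agrin) at -2.31 ± 0.126, and Nid1 (nidogen) at 2.0 ± 0.2. Among 7 hemidesmosome and tetraspanin genes, Cd151, Dst and Cd81 were called lower, whereas Col17a1, the transmembrane collagen of hemidesmosomes, rose by 1.24 ± 0.0945 (adjusted p = 4.27e-08). Of 14 other integrin ligands, 11 tested, 2 were called higher (Spp1 at 4.13 ± 0.318 and Madcam1 at 3.86 ± 0.196) and 1 lower (Cdh1 at -1.07 ± 0.0685), with a median of -0.13.

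Ptk2 and Itga3 were lower in Rbfox2 tKO mice, and no other member passed the test between tKO and control mice with the filter on low counts. Among the cell type markers, Foxn1 passed as higher in mature mTEC of Rbfox1 and Rbfox2 tKO mice (log2 fold change 0.77 ± 0.0841 and 0.58 ± 0.0848) and in immature mTEC of Rbfox1 tKO mice (0.95 ± 0.118), and Acta2 as lower in mature mTEC of Rbfox2 tKO mice (-0.66 ± 0.119, adjusted p = 0.0428). Their part in the results for Ptk2 and Itga3 was not tested. RBFOX proteins are splicing factors, and splicing was not analysed here. With all libraries, no member passed the adjusted p threshold together with a fold over 2 between tKO and control mice in DESeq2. The same held in edgeR with the filter on low counts. By adjusted p alone in edgeR, these genes passed in both populations of the Rbfox2 line, 2 of 50 members tested in mature and 2 of 37 in immature mTEC, where 0.0555% and 0.0919% of all rows passed. In Rbfox1 tKO mice no member passed in DESeq2 or in edgeR with the filter on low counts and no replicate block. Of all rows in that edgeR fit, 0.0222% passed in mature and 0.0383% in immature mTEC.

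**Figure D4:**
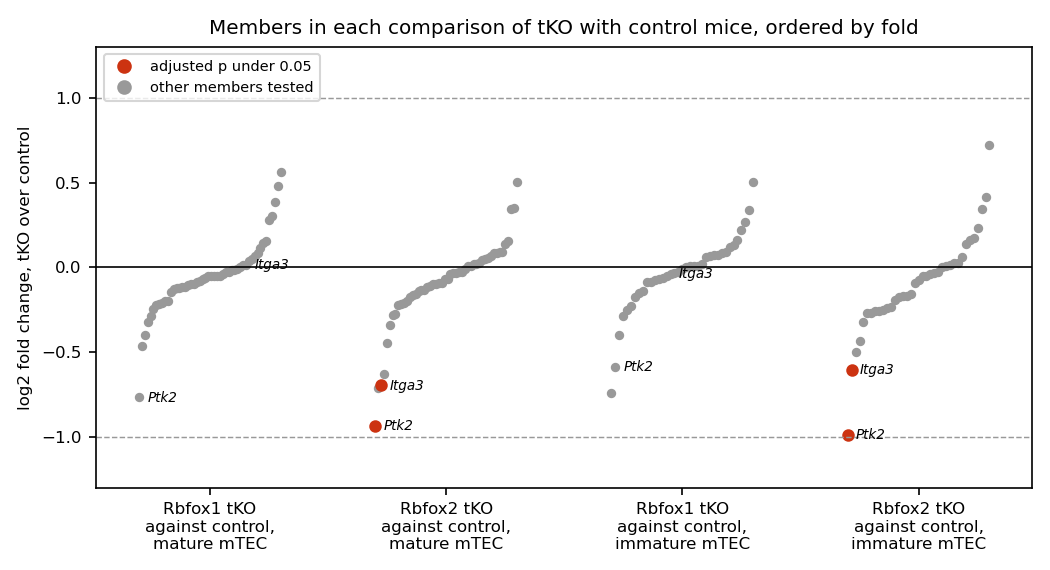
Log2 fold change of tKO over control for each member tested, ordered within each comparison, with members at an adjusted p under 0.05 in red and dashed lines at a fold of 2. Ptk2 and Itga3 passed in both populations of Rbfox2 tKO mice; Ptk2 was below 0 in all 4 comparisons, while Itga3 was near 0 in Rbfox1 tKO mice.

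Ptk2 encodes focal adhesion kinase, which is recruited to integrins and relays their signal with Src (15:73205102-73423280, minus strand). In mature mTEC it was at 50.9 and 50.5 CPM in control and 27.8 and 31.7 CPM in tKO mice of the Rbfox1 line, and at 51.0 and 45.5 against 28.7 and 22.2 CPM in the Rbfox2 line. In immature mTEC the levels were 71.0 and 71.8 against 47.9 and 47.2 CPM, and 80.6 and 76.4 against 36.4 and 41.6 CPM. Every tKO library was thus below every control library of the same population in both lines. The raw counts behind these levels ranged from 52 to 239.

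In Rbfox2 tKO mice Ptk2 fell by 0.94 ± 0.154 on the log2 scale in mature (edgeR, adjusted p = 0.0187) and by 0.99 ± 0.156 in immature mTEC (adjusted p = 0.0168). In Rbfox1 tKO mice the log2 fold changes were -0.77 ± 0.146 (adjusted p = 0.155, or 0.00293 with no filter on low counts; unadjusted p = 4.3e-05) and -0.59 ± 0.138 (adjusted p = 0.305; unadjusted p = 0.00057). Over both lines, 4 tKO against 4 control mice, Ptk2 fell by 0.85 ± 0.104 in mature (adjusted p = 0.000202) and by 0.77 ± 0.112 in immature mTEC (adjusted p = 0.00457). It was then the only member that passed in either population, where 0.0388% of all rows passed in mature and 0.0919% in immature mTEC. The difference of the effects between the lines was -0.17 ± 0.213 in mature and -0.40 ± 0.21 in immature mTEC (adjusted p = 0.994 and 0.975). In the Rbfox2 line, the call was lost without either mature control library or without that of tKO mouse 2 (adjusted p = 0.12 to 0.256) and without any 1 of the 4 immature libraries (adjusted p = 0.0605 to 0.248), with log2 fold changes of -0.76 to -1.02 and -0.90 to -1.09; over both lines it held without each library.

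Itga3 encodes the alpha chain that pairs with Itgb1 to bind laminin-332 and laminin-511 (11:95044474-95076801, minus strand). In mature mTEC it was at 279 and 272 CPM in control and 168 and 173 CPM in tKO mice of the Rbfox2 line, and at 261 and 240 against 256 and 249 CPM in the Rbfox1 line. Immature mTEC had 316 and 341 against 214 and 213 CPM in the Rbfox2 line, and 308 and 288 against 301 and 279 CPM in the Rbfox1 line. Tight pairs of libraries thus separated the Rbfox2 tKO mice from their controls, and the groups of the Rbfox1 line overlapped.

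In Rbfox2 tKO mice the fall of Itga3 was 0.70 ± 0.0866 on the log2 scale in mature (edgeR, adjusted p = 0.000544) and 0.60 ± 0.105 in immature mTEC (adjusted p = 0.0335). In the Rbfox1 line the log2 fold changes were 0.01 ± 0.0842 and -0.04 ± 0.0991 (adjusted p = 1 and 0.975). The difference between the lines was -0.71 ± 0.121 in mature mTEC (adjusted p = 0.1) and -0.56 ± 0.145 in immature mTEC (adjusted p = 0.949), so it did not pass in edgeR, where 0.00555% and 0.00766% of all rows passed. DESeq2 put the mature difference at -0.70 with an adjusted p of 0.028, and the other settings gave 0.000276 to 0.392. The call in immature mTEC was lost without any 1 of the 4 libraries (adjusted p = 0.16 to 0.305), whereas that in mature mTEC held. Itga3 lies on chromosome 11 like Foxn1 (11:78357577-78386558), 16.7 Mb away. The tKO mice of both lines carried the cre allele of Foxn1. Itgae, Itga2b, Itgb3 and Itgb4 lie on chromosome 11 as well. Any part of this linkage in the levels of Itga3 was not tested.

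**Figure D5:**
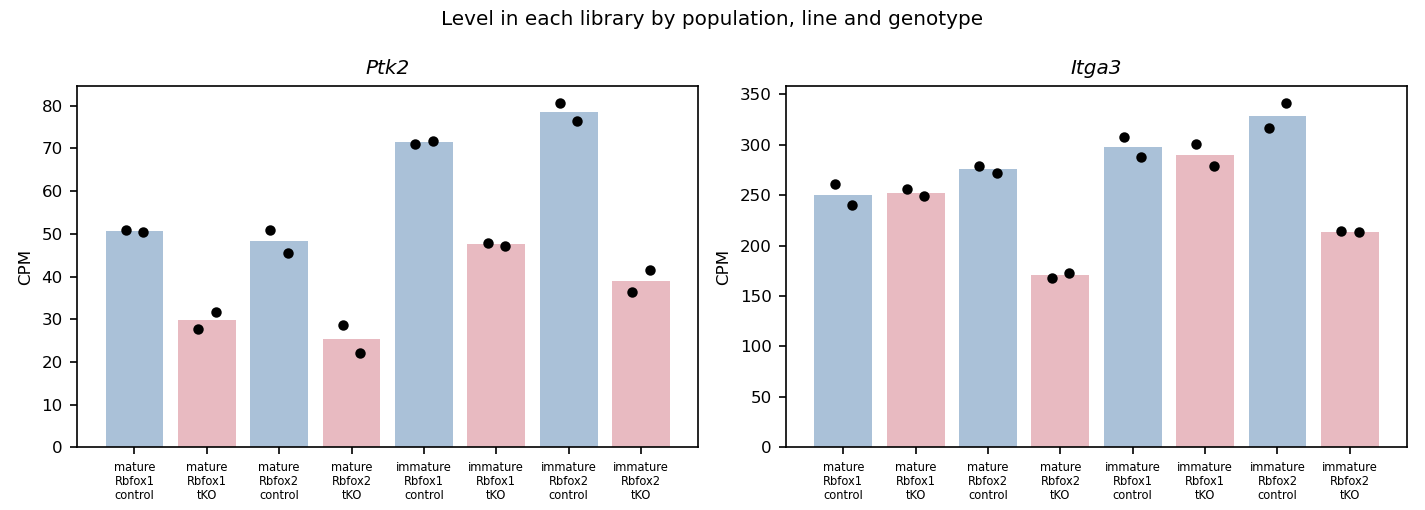
Level of Ptk2 (left) and Itga3 (right) in CPM in each of the 16 libraries (points), with bars at the mean of 2 mice, by population, line and genotype. Ptk2 was lower in tKO mice of both lines and Itga3 in tKO mice of the Rbfox2 line.

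Neither gene's partners passed in the same comparisons. Itgb1, the only beta chain known for Itga3, had log2 fold changes of -0.14 ± 0.0928 in mature and -0.04 ± 0.0975 in immature mTEC of Rbfox2 tKO mice (adjusted p = 0.93 and 0.981). Itga6 had -0.10 ± 0.0869 and -0.19 ± 0.0869, and Itgb4 0.09 ± 0.0965 and -0.10 ± 0.103. The log2 fold changes of all members lay between -0.94 and 0.51 in mature and between -0.99 and 0.72 in immature mTEC of Rbfox2 tKO mice, and between -0.77 and 0.56, and -0.74 and 0.50, in Rbfox1 tKO mice. Their medians were -0.07, -0.07, -0.05 and -0.01, beside medians of 0.00 for all rows.

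At an unadjusted p under 0.05, 5 members of 50 in mature and 8 of 37 in immature mTEC of Rbfox2 tKO mice stood out, beside 5.34% and 6.25% of all rows, and 4 of 50 and 2 of 37 in Rbfox1 tKO mice, beside 3.35% and 5.9%. DESeq2 gave 3 and 6, and 2 and 1 members at that unadjusted p, beside 306 of 18021 and 242 of 13060, and 144 of 18021 and 179 of 13060 of all rows. In Rbfox2 tKO mice the members given by edgeR were Itgav, Lama2 and Lama5 in mature and Pxn, Vcl, Itga6, Lama2, Lama3 and Lamb3 in immature mTEC, besides Ptk2 and Itga3. Vcl stood at -0.44 ± 0.116 on the log2 scale in immature mTEC (adjusted p = 0.357, or 0.0112 with no filter on low counts), with 328 and 397 against 486 and 507 CPM. Lama2 was at 70.0 and 56.2 CPM in immature mTEC of Rbfox2 tKO mice against 43.0 and 34.3 CPM in controls (0.72 ± 0.236, adjusted p = 0.622), where the fibroblast markers summed to 2130 and 1655 against 1645 and 1424 CPM. Fn1 had -0.21 ± 0.0894 in mature mTEC of Rbfox1 tKO mice (adjusted p = 1). Among the 73 other pathway genes none passed by edgeR or DESeq2 in either line, of 71 tested in mature and 65 in immature mTEC. At an unadjusted p under 0.05, edgeR gave 6 of them in each population of Rbfox2 tKO mice and 2 in each of Rbfox1 tKO mice, and DESeq2 gave 0 and 4, and 0 and 1.

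The letters TGCATG, the core that RBFOX proteins bind in RNA as UGCAUG, were searched on the transcript strand of the 3′ UTR of 1 GENCODE M21 transcript per gene, that with the longest coding sequence. They were absent from the 3′ UTRs of Ptk2 (946 bases) and Itga3 (1134 bases). Of 53 members, 14 held a match (26.4%), against 29.5% of 20668 protein-coding genes, and among genes whose 3′ UTR was within a factor of 0.8 either way of that of Ptk2 or Itga3 in length the shares were 27.0% and 31.6%. Introns, where RBFOX sites act on splicing, were not searched.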

How the data were processed

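Per the methods and the file headers, the authors dropped duplicates and unmapped reads and thinned the libraries to a common size (14500000 in mature and 10000000 in immature mTEC by the column names) before they deposited raw counts per gene. Tools in the submitters' processing notes were featureCounts 1.6.0, HISAT2 2.1.0 and Picard 2.10.9, with mm10 as the build. Gene names, positions and exon lengths were taken from GENCODE M21 (GRCm38). Members and gene lists were chosen with earlier results of these data known. Genes named with values were those passing in a tKO comparison, up to 12 per direction between populations, laminin chains with their receptors, the adhesion complex, the 10 highest per kb, and blood cell integrins. Itga2, Itga8, Itga9, Itgav, Itgb3bp, Itgb5, Itgb6, Lama2 and the examples of the other pathway genes were named after their values were seen.

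Rows were tested by edgeR 4.0.16 under R 4.3.3 (TMM, filterByExpr at a minimum count of 10, quasi-likelihood test, Benjamini-Hochberg adjustment over all rows), with all 8 libraries of a population, or of a genotype, in a fit. Comparisons between populations and over both lines had line as a covariate. The fit was tried on simulated data. DESeq2 1.42.0, other scalings, filters and a replicate block were alternatives, and each line alone was added after the data were seen. Mature and immature libraries of 1 number came from the same mouse, and their deviations from group means correlated by 0.173 to 0.301. Libraries of 1 group differed by more than counting noise (chi-square per degree of freedom 1.78 to 2.74). Levels are CPM scaled by TMM over all 16 libraries. Some items are not reported here.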

Additional observations from a re-analysis of the deposited data

Results flagged for a closer look

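In 161 groups of 4 libraries (a named gene in 1 population and genotype), 7 (4.35%) had a library far from the other 3 by Dixon's criterion, which chance gives in about 1 of 20. Ptk2 in mature mTEC of control mice was at 45.5 CPM in mouse 2 of the Rbfox2 line and 50.5 to 51.0 CPM in the others, still above every tKO library. Parva in the same group was at 75.5 CPM in mouse 3 of the Rbfox1 line and 98.3 to 102 CPM elsewhere. Itga5 in immature mTEC of control mice was at 36.5 CPM in mouse 1 of the Rbfox2 line against 20.2 to 22.9 CPM, and Itgb7 in mature mTEC of the same mouse was at 4.70 against 1.70 to 1.94 CPM. In tKO mice, mouse 2 of the Rbfox2 line stood apart for Itga4 in mature mTEC (5.08 against 8.09 to 8.47 CPM) and for Itgb7 in immature mTEC (0.694 against 1.40 to 1.54 CPM). Itgam in mature mTEC of tKO mice rests on 1 count (0.219 CPM against 0).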

How the results depend on the processing

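Between populations, 31 members were called in control and 31 in tKO mice. Other scalings, DESeq2, no filter, the replicate block (mouse) and each line alone gave 27 to 34 in control and 24 to 34 in tKO mice, adjusted p alone 41 and 40, and leaving out a mouse 27 to 33 and 27 to 32. At least 10 counts in every library left fewer members to test and gave 15 and 14. In the Rbfox2 line alone, Fn1 turned to -0.074 in control and -0.001 in tKO mice. The block ended 1 call, of Itgb3bp in control mice (log2 fold change 0.52, adjusted p = 0.0505).

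Between tKO and control mice of the Rbfox2 line, 0 members were called in either population with the fold threshold and 2 and 2 without it. Over both lines, 0 were called with it and 1 and 1 without. Without a library, the mature Rbfox2 comparison called 0 to 1 (Ptk2, without tKO mouse 1), and with no filter the immature one called 1. The difference between the lines in mature mTEC passed for 1 member (Itga3) with DESeq2, library totals, no filter or the replicate block, and for 0 to 1 without a library. Ptk2 also passed in mature mTEC of the Rbfox1 line with the block (adjusted p = 0.0136) and with no filter (0.00293). Mice of the same number share sex by the labels, whether they share a litter is not stated, and they correlated by 0.0889 to 0.312. With no filter Vcl passed in immature mTEC of the Rbfox2 line (0.0112) and over both lines (0.00779), and Itga3 over both lines (0.000519 in mature and 0.0219 in immature mTEC). The causes of these changes were not tested. Ptk2 in immature mTEC of the Rbfox2 line missed the threshold in DESeq2 (adjusted p = 0.0609). No level of a named gene moved by more than 1 SD with library totals, of 151 compared.

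Members detected per library at equal depth (51.6 in mature mTEC of control and of tKO mice, 47.3 and 48.5 in immature) became 52.2, 52.2, 48.2 and 49.0 as deposited, and 50.8, 50.8, 39.5 and 38.0 at a minimum of 5 counts. For tKO effects 37 members were tested in immature and 50 in mature mTEC; lower depth and lower levels there were not separated, and 2 mice per group limit all comparisons between genotypes.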
